A study of Homo sapiens with 9 samples.

Results

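The collagen genes of 143B cells, an established human osteosarcoma line, were followed at 0 h and after 24 h and 48 h with 0.5 µM XD23, a compound known here only by its code name. Members were the protein-coding genes whose symbol is COL, a number, A and a number, which gave 44 genes of the 36810 in the table (17169 of them protein-coding). The control group was labelled con, at 0 h, and each of the 3 groups (control, XD23 for 24 h, XD23 for 48 h) had 3 libraries of poly(A)-selected RNA from the same line, grown in RPMI-1640 medium with serum. Cells untreated or given vehicle for 24 h or 48 h were not analysed here, so the compound and the time in culture cannot be told apart. Whether replicate libraries stem from different cultures is not stated in the labels, so the p-values measure only the spread between these libraries, which may be technical.

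Collagens are secreted or membrane-bound proteins built from chains that wind into triple helices. Fibrillar collagens form the tensile fibrils of bone, skin and cartilage, and bone matrix is mostly type I collagen, made by osteoblasts from COL1A1 and COL1A2. Network collagens form the sheets of basement membranes, beaded collagen VI forms microfibrils around cells, and transmembrane collagens stay anchored in the cell membrane. The fibril-associated (FACIT) collagens bind to the surface of fibrils, and the multiplexins sit in basement membranes.

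At 48 h the beaded collagen genes COL6A1, COL6A2 and COL6A3 rose together and COL5A2, the most abundant fibrillar collagen gene of these cells, fell. COL18A1 (a multiplexin), COL9A3 (FACIT) and COL4A5 (network) rose as well, while no collagen gene was called at 24 h. The genes of type I collagen, COL1A1 and COL1A2, were under 1 FPKM (fragments scaled to exon length and to the fragments of the library) in all 9 libraries.

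Promoter windows are shown for 5 collagen genes that were called in at least 1 comparison: COL6A2 and COL6A3, because they changed most, COL18A1, which lies near COL6A2 on chromosome 21, and COL4A2 and COL4A5, each of which starts beside another network collagen gene. Each is the RefSeq window of 250 bases before to 50 bases after the annotated start on GRCh38.p14, printed 5′ to 3′ on the gene's own strand. Capitals mark matches, on either strand, to the CCAAT box (CCAAT), the GC box (GGGCGG) or the TATA box (TATAAA); the AP-1 site (TGANTCA) and the core of the hypoxia element (ACGTG) were also searched and had no match in these 5 windows. The windows lie at chr21:46097862-46098161 (plus strand, COL6A2), chr2:237414115-237414414 (minus strand, COL6A3), chr21:45404915-45405214 (plus strand, COL18A1), chr13:110307034-110307333 (plus strand, COL4A2) and chrX:108439588-108439887 (plus strand, COL4A5).
COL6A2: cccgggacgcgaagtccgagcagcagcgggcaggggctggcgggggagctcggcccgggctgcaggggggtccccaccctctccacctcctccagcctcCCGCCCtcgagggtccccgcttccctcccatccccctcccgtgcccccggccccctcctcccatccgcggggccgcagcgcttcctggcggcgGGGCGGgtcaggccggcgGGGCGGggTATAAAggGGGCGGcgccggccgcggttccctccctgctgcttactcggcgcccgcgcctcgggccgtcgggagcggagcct
COL6A3: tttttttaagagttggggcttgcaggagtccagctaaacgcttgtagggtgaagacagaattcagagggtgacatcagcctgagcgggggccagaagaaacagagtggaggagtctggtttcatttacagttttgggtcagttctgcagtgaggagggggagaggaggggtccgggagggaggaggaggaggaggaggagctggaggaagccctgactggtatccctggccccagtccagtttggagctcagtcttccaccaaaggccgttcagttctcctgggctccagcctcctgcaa
COL18A1: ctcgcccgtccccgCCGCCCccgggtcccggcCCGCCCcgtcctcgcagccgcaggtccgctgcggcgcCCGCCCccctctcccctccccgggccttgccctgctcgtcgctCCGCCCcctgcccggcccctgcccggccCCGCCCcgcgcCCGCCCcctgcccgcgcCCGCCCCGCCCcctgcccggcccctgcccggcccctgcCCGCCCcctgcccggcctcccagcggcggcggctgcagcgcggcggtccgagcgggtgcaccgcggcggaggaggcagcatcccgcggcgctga
COL4A2: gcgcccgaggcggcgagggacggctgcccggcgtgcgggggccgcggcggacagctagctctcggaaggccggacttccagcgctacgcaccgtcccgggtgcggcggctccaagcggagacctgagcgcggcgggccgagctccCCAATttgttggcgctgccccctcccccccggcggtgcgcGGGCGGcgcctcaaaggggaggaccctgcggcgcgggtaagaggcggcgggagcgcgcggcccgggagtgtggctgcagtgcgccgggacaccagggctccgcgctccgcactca
COL4A5: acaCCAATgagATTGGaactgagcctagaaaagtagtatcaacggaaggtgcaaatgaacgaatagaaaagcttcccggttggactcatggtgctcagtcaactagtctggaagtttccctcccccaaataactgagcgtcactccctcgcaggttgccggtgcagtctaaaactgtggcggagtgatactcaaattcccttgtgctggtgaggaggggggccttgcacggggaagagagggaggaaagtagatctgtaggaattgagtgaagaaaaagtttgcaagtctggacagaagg

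The COL6A2 window held 4 GC boxes and 1 TATA box, the COL18A1 window held 9 GC boxes, of which a pair shares 1 base, and the COL6A3 window held no match to any of the 5 motifs. COL18A1 has a second annotated start, whose window held 1 GC box and 1 TATA box. The COL4A2 window held 1 CCAAT box and 1 GC box. COL4A1, on the opposite strand, starts 127 bases from the COL4A2 start, so the same CCAAT box lies in the windows of both genes, which share 226 bases. The COL4A5 window held 2 CCAAT boxes, and COL4A6 starts 380 bases away on the opposite strand. RefSeq windows were kept for 32 of the 44 collagen genes and for 14 of the 17 that were tested (not for COL6A1, COL9A3 and COL5A2). Any windows on chromosome 8, where COL14A1 and COL22A1 lie, were left out of the 32. Over all windows of each gene, a GC box was present in 10 of these 14 genes, a CCAAT box in 5, a TATA box in 5, the hypoxia element core in 2 and the AP-1 site in 0. Of 35116 windows in the genome, 45.0% held a GC box, 34.6% a CCAAT box, 11.5% a TATA box, 21.4% the hypoxia element core and 7.71% the AP-1 site, and genes with several windows had more chances of a match. A match is a run of letters in this window and not evidence of binding.

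The libraries held 18341542 to 22901830 fragments. The mesenchymal markers VIM (297 to 389 FPKM), CD44 (52.7 to 56.9 FPKM), SPARC (27.6 to 43.3 FPKM) and RUNX2 (4.06 to 6.61 FPKM) were present in all 9 libraries, and ALPL, an enzyme of mineralizing osteoblasts, was at 0.0366 to 0.171 FPKM. Of the markers of other cells, EPCAM was at 2.499 to 4.69 FPKM and PECAM1 at 0.215 to 0.699 FPKM, and the others that were listed were at or below 0.136 FPKM. Replicate 3 of the 24 h group stood apart: it was lower than both other 24 h libraries in 14 of the 17 tested collagen genes (44.2% of all tested genes) and the lowest of all 9 libraries in 12 (25.5% of all tested genes). On the log2(FPKM + 1) scale the median difference of the collagen genes in that library from the mean of the other 24 h libraries was -0.24, against -0.01 for all tested genes. In the same library genes above the upper quartile of length had a median deviation of -0.12 and genes at or below the lower quartile one of 0.09, and the collagen genes are long (median 11133 bases, against 4513 bases for all tested genes). The part of length or of this library's preparation in the low collagen values was not tested. For the 17 tested collagen genes, calls below that change without this library, and printed values that move by over 1.5 times, are given both ways. For the genes of the lists further below, fits without this library are not given.

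Of the 44 collagen genes, 27 were under 1 FPKM in all 9 libraries, and the other 17 all passed the filter of at least 1 FPKM in at least 3 libraries. The genes under 1 FPKM were 8 of the 11 fibrillar collagens (COL1A1, COL1A2, COL2A1, COL3A1, COL5A3, COL11A1, COL11A2 and COL24A1), 5 of the 9 network collagens (COL4A3, COL4A4, COL8A1, COL8A2 and COL10A1), 2 of the 5 beaded collagens (COL6A5 and COL6A6) and 2 of the 4 transmembrane collagens (COL23A1 and COL25A1). They also included 7 of the 10 FACIT collagens (COL9A1, COL14A1, COL16A1, COL19A1, COL20A1, COL21A1 and COL22A1), 1 of the 2 multiplexins (COL15A1) and both genes outside these classes (COL26A1 and COL28A1). Nearest below the line stood COL22A1, with a highest value of 0.972 FPKM, COL16A1 with 0.931 FPKM and COL8A1 with 0.896 FPKM. Nearest above it stood COL7A1, which passed only through its 48 h libraries and therefore had to differ from the other groups to be tested.

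In control cells COL6A3 (30.3 ± 2.17 FPKM, SD, n = 3), COL5A2 (30.2 ± 0.21) and COL6A2 (23.8 ± 0.50) had the highest levels, and the first pair did not differ beyond the spread between libraries. COL6A1 (16.4 ± 0.92), COL4A1 (12.8 ± 0.93), COL12A1 (11.6 ± 0.64) and COL4A2 (11.3 ± 0.30) followed. The range of COL12A1 overlapped those of COL4A1 and COL4A2. COL13A1 (8.80 ± 0.34), COL9A3 (6.16 ± 0.38) and COL27A1 (6.06 ± 0.59) came next, the last 2 of these overlapping. COL18A1, COL5A1, COL4A5 and COL9A2 lay at mean levels of 2.82 to 3.28 FPKM, and COL4A6, COL17A1 and COL7A1 lay at 1.71, 1.63 and 0.725 FPKM. Levels between genes depend on the exon length used for FPKM. The length recovered from the values was 18860 bases for COL12A1 and 11509 bases for COL13A1, against 12481 and 5888 bases of exon in GENCODE v29, so these levels would be higher with the GENCODE lengths. For COL6A3 and COL5A2 it was 21516 and 7319 bases, against 19633 and 7453 bases. The closeness of these genes in controls therefore depends on the length used, and with the GENCODE lengths COL6A3 would be higher and COL5A2 lower.

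**Figure D1:**
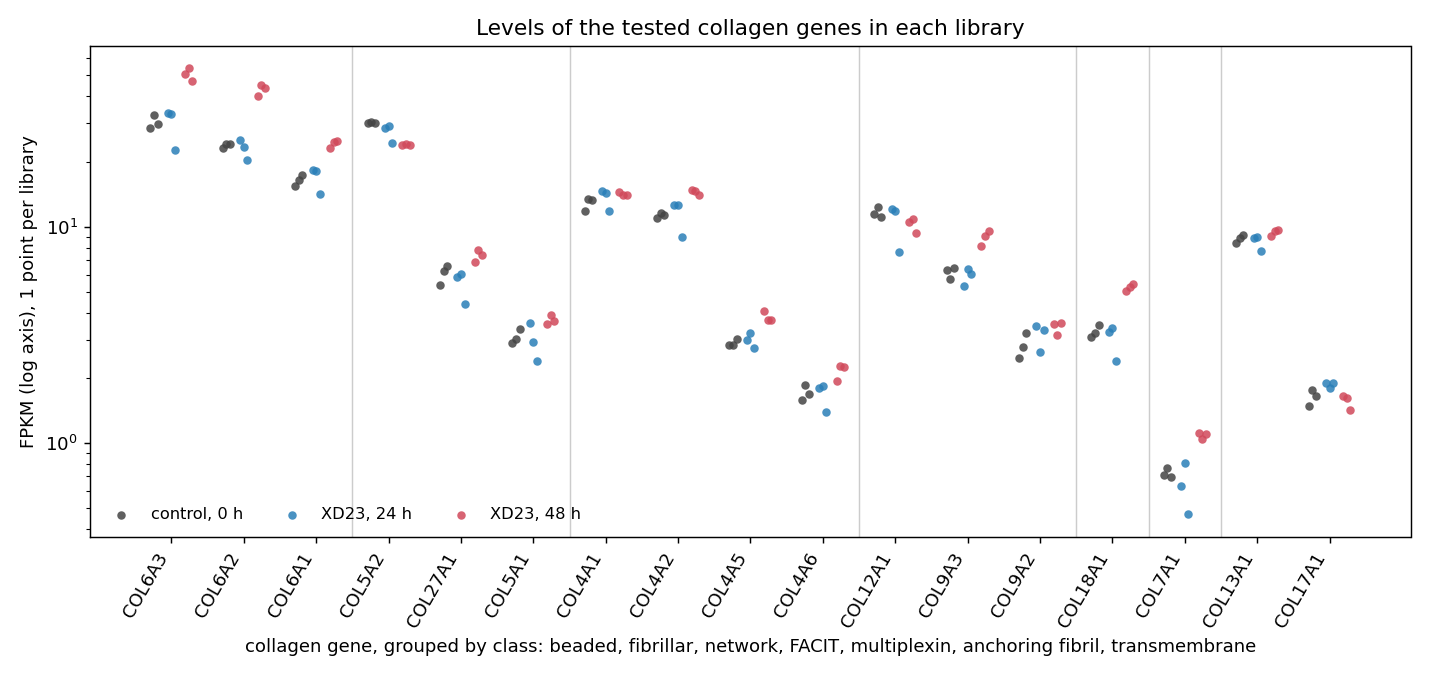
FPKM on a log axis of the 17 tested collagen genes in each of the 9 libraries, ordered by class, with control, 24 h and 48 h libraries marked separately and one point per library. The 48 h points of COL6A1, COL6A2 and COL6A3 lie above all others of the same gene, and those of COL5A2 lie below.

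Differences between groups were tested with limma on log2(FPKM + 1) over all 13657 genes that passed the filter, and those with an adjusted p below 0.05 are named as called. Of the 17 tested collagen genes, 6 were called higher and 1 lower at 48 h against control, where 13.3% of all tested genes were called higher and 15.2% lower. The median log2 fold change of the collagen genes was 0.25, against -0.02 over all tested genes. In 12 collagen genes all 3 libraries at 48 h lay above all 3 controls and in 2 all lay below, where 22.7% and 27.7% of all tested genes did so. The 12 and the median include COL7A1, which passed the filter only through its 48 h libraries. At 24 h against control, limma called 0 collagen genes in either direction, beside 0% of all tested genes higher and 0.00732% lower. At an unadjusted p under 0.05, 0 collagen genes were higher and 1 lower, beside 379 and 636 of the 13657 tested genes. The 48 h libraries set against the 24 h ones gave 9 collagen genes called higher and 0 lower, where 16% of all tested genes were called higher and 16.3% lower; these comparisons share the 48 h libraries. The 9 include COL7A1, which was tested only because of its 48 h level, and 8 remain without it. At an unadjusted p under 0.05 (limma), 11 collagen genes were higher and 2 lower in that comparison, beside 2872 and 3033 of the 13657 tested genes. Without replicate 3 of the 24 h group, 13543 genes were tested. Limma then called 10 collagen genes higher and 1 lower at 48 h against control, beside 2365 and 2771 of all tested genes. With all 9 libraries those counts over all genes were 1811 and 2080. At 48 h against 24 h it called 8 collagen genes higher and 2 lower, beside 2217 and 2383 of all tested genes. The 10 include COL7A1, and the 8 do not.

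**Figure D2:**
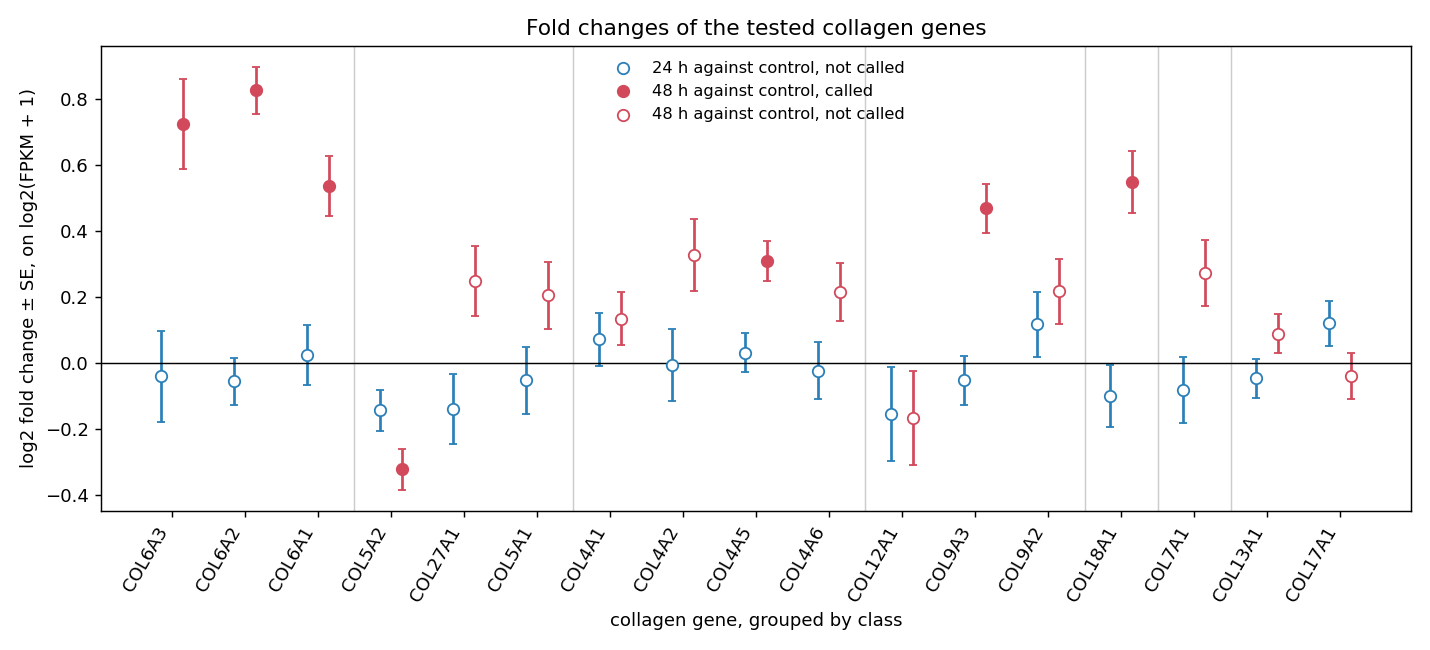
Log2 fold change on the log2(FPKM + 1) scale, with its standard error from limma, of the 17 tested collagen genes at 48 h against control and at 24 h against control, ordered by class, with called genes filled. The 3 collagen VI genes stand between 0.54 and 0.83 at 48 h, and no gene is called at 24 h.

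The 3 chains of beaded collagen VI rose at 48 h. COL6A1 and COL6A2 lie 93046 bases apart on chromosome 21, and COL6A3 lies on chromosome 2 (chr2:237324003-237414375, minus strand, hg38 by GENCODE v29). COL6A2 had 23.2, 24.1 and 24.1 FPKM in controls, 25.0, 23.3 and 20.4 FPKM at 24 h, and 40.2, 45.0 and 43.7 FPKM at 48 h. Every 48 h library was above every control and every 24 h library, and the control and 24 h libraries overlapped. The mean at 48 h was 1.81 times that of controls, with a log2 fold change of 0.83 ± 0.07 (SE; limma adjusted p = 0.000122), the largest of the 17. COL6A3, whose long chain carries many von Willebrand factor type A domains, had 28.5, 32.7 and 29.9 FPKM in controls, 33.7, 33.3 and 22.6 FPKM at 24 h, and 51.0, 54.0 and 47.3 FPKM at 48 h. Its mean at 48 h was 1.67 times that of controls (log2 fold change 0.72 ± 0.14, limma adjusted p = 0.00514). COL6A1 had 15.4, 16.5 and 17.3 FPKM in controls, 18.2, 18.1 and 14.1 FPKM at 24 h, and 23.0, 24.7 and 25.0 FPKM at 48 h. Its mean at 48 h was 1.48 times that of controls (log2 fold change 0.54 ± 0.09, limma adjusted p = 0.0031). In COL6A3 and COL6A1 too the 48 h libraries were above all others, and the controls and 24 h libraries overlapped. Against 24 h the log2 fold changes of COL6A2, COL6A3 and COL6A1 at 48 h were 0.88, 0.76 and 0.51, all called by limma. More RNA per cell and more cells that make it cannot be told apart in these bulk libraries. The 2 other beaded genes were near the limit of detection: COL6A5 had 9 fragments in all, every one of them in controls, and COL6A6 had 1 to 4 fragments in each library.

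The makeup of the collagen transcripts by class differed at 48 h. The summed level of the beaded class was 70.5 ± 3.15 FPKM in controls, 69.6 ± 10.8 FPKM at 24 h and 118 ± 5.02 FPKM at 48 h (SD, n = 3 each). It made up 39.5% to 40.3% of all collagen FPKM in controls, 39.2% to 41.4% at 24 h and 50.4% to 51.7% at 48 h. The fibrillar class had sums of 40.6 ± 0.98, 37.1 ± 4.18 and 35.9 ± 0.93 FPKM, and its share was 22.4% to 23.3% in controls, 21.1% to 22.1% at 24 h and 15.4% to 15.6% at 48 h. The network class summed to 29.7 ± 1.42, 30.5 ± 4.22 and 36.0 ± 0.62 FPKM, and its share was 16.5% to 16.9% in controls, 17.5% to 17.9% at 24 h and 15.1% to 16.1% at 48 h. The transmembrane class summed to 10.5 ± 0.46, 10.4 ± 0.69 and 10.998 ± 0.27 FPKM, with shares of 5.84% to 5.99%, 5.81% to 6.58% and 4.69% to 4.83%. At 48 h the shares of the fibrillar, network and transmembrane classes were all below those of controls, although the network sum was above. The 48 h range lay above the control range for the beaded and network sums, below it for the fibrillar sum, and overlapped it for the transmembrane sum. All collagen genes together summed to 177 ± 6.38, 172 ± 22.7 and 232 ± 6.58 FPKM, which was 0.0469% to 0.0831% of all FPKM in a library. A sum is led by its most abundant genes (COL5A2 in the fibrillar class, COL4A1 and COL4A2 in the network class, COL13A1 in the transmembrane class), and no test was made on it.

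**Figure D3:**
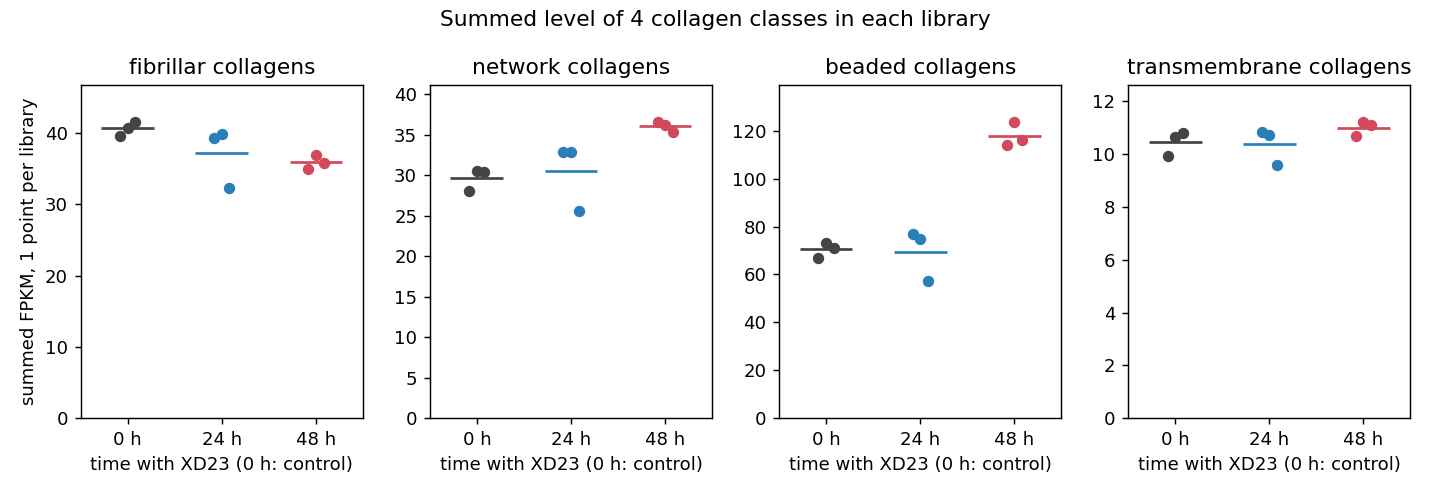
Summed FPKM of the beaded, fibrillar, network and transmembrane collagen genes in each library, with one point per library and the control, 24 h and 48 h groups side by side. Beaded sums lie between 114 and 124 FPKM at 48 h and between 67.1 and 73.3 FPKM in controls, and the lowest 24 h point of each class is replicate 3; horizontal lines mark group means.

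Among the 3 tested fibrillar collagens COL5A2 fell at 48 h against control, and COL27A1 was called higher at 48 h against 24 h. COL5A2, which pairs with COL5A1 in type V collagen and helps to set the diameter of fibrils, had 30.1, 30.5 and 30.2 FPKM in controls, 28.5, 29.3 and 24.3 FPKM at 24 h, and 23.9, 24.2 and 23.9 FPKM at 48 h. All 48 h libraries were below all others, and all 24 h libraries were below all controls. Its log2 fold change at 48 h against control was -0.32 ± 0.06 (limma adjusted p = 0.0054), and at 48 h against 24 h it was -0.18 ± 0.06 (adjusted p = 0.0546, and 0.000447 with a value of -0.26 without replicate 3 of the 24 h group). COL5A1 averaged 3.09 FPKM in controls, 2.97 FPKM at 24 h and 3.71 FPKM at 48 h, and was not called (log2 fold change 0.21 ± 0.10 at 48 h against control, limma adjusted p = 0.172). COL5A1 had a log2 fold change of 0.26 at 48 h against 24 h (adjusted p = 0.0868, 0.0144 with a value of 0.37 without replicate 1 of the 24 h group, and 0.194 with a value of 0.15 without replicate 3 of it). COL27A1, a fibrillar collagen known from cartilage, had 5.40, 6.22 and 6.55 FPKM in controls, 5.87, 6.03 and 4.39 FPKM at 24 h, and 6.89, 7.83 and 7.40 FPKM at 48 h. It was called at 48 h against 24 h (0.39 ± 0.11, limma adjusted p = 0.0226) and not at 48 h against control (0.25 ± 0.11, adjusted p = 0.115). The call against 24 h was lost without replicate 2 of the 48 h group (adjusted p = 0.0808) or without replicate 3 of it (adjusted p = 0.0585), and the comparison with controls was called without replicate 3 of the 24 h group (adjusted p = 0.0222).

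Among the network collagens, COL4A5, a chain of basement membranes in kidney and other tissues, rose. It had 2.84, 2.82 and 3.03 FPKM in controls, 2.98, 3.22 and 2.76 FPKM at 24 h, and 4.09, 3.70 and 3.70 FPKM at 48 h, with all 48 h libraries above all others. Its log2 fold change at 48 h against control was 0.31 ± 0.06 (limma adjusted p = 0.00589). Its neighbour COL4A6 averaged 1.71, 1.67 and 2.14 FPKM at 0 h, 24 h and 48 h and was not called (0.22 ± 0.09 at 48 h against control, adjusted p = 0.1, and 0.0413 without replicate 3 of the 24 h group). COL4A1 and COL4A2 make the chains of the most widespread basement membrane network. COL4A2 had 10.99, 11.6 and 11.4 FPKM in controls, 12.6, 12.7 and 8.92 FPKM at 24 h, and 14.8, 14.6 and 14.0 FPKM at 48 h. The 48 h libraries of COL4A2 were above all others, but its call rested on single libraries. Its log2 fold change was 0.33 ± 0.11 at 48 h against control (limma adjusted p = 0.0529), and without replicate 1, 2 or 3 of the 24 h group the same value had an adjusted p of 0.0468, 0.0479 or 0.000294. Against 24 h it was 0.33 ± 0.11 (adjusted p = 0.045), and leaving out any 1 control or any 1 library at 48 h gave an adjusted p of 0.0636 to 0.113. Without replicate 3 of the 24 h group that value was 0.18 (adjusted p = 0.0078). COL4A1 averaged 12.8 FPKM in controls, 13.6 FPKM at 24 h and 14.2 FPKM at 48 h and was not called (0.13 ± 0.08 at 48 h against control, adjusted p = 0.247).

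Ratios were formed between chains that assemble with each other or start at neighbouring promoters. The ratio of COL6A2 to COL6A1 was 1.39 to 1.503 in controls, 1.29 to 1.45 at 24 h and 1.75 to 1.82 at 48 h, so the 48 h libraries lay above all others. The ratio of COL6A3 to COL6A1 was 1.73 to 1.99, 1.61 to 1.85 and 1.89 to 2.22 at 0 h, 24 h and 48 h. The control range overlapped those of both other groups, and the 48 h libraries lay above all 24 h libraries. The ratio of COL4A1 to COL4A2 was 1.07 to 1.17 in controls, 1.14 to 1.32 at 24 h and 0.967 to 0.999 at 48 h, so the 48 h libraries lay below all others. The ratio of COL4A5 to COL4A6 overlapped between all groups (1.53 to 1.80, 1.66 to 1.99 and 1.64 to 2.12). The ratio of COL5A2 to COL5A1 was 8.996 to 10.4 in controls, 7.94 to 10.2 at 24 h and 6.16 to 6.73 at 48 h, below all others at 48 h. These ratios are of FPKM and depend on the exon length used for each gene, which is the same in every library. No test was made on them.

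**Figure D4:**
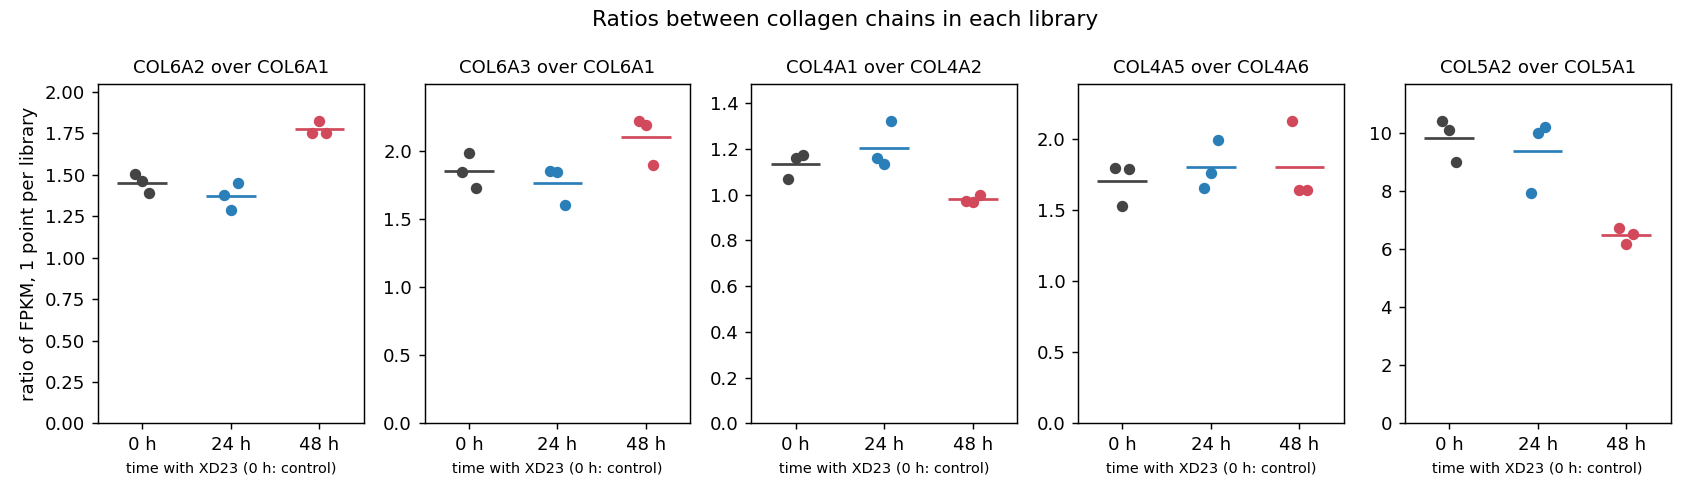
Ratio of FPKM between paired collagen chains in each library, one panel per pair and one point per library, with control, 24 h and 48 h groups side by side. At 48 h the points of COL6A2 over COL6A1 lie above all others (1.75 to 1.82) and those of COL5A2 over COL5A1 lie below all others (6.16 to 6.73), and horizontal lines mark group means.

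Among the tested genes, the FACIT and multiplexin classes each had 1 gene that was called higher at 48 h against control. The FACIT gene COL22A1, under 1 FPKM, is described further below. COL9A3, a chain of type IX collagen found on cartilage fibrils, had 6.33, 5.73 and 6.42 FPKM in controls, 5.32, 6.35 and 6.07 FPKM at 24 h, and 8.16, 9.07 and 9.51 FPKM at 48 h. The 48 h libraries were above all others, and the mean was 1.45 times that of controls (log2 fold change 0.47 ± 0.07, limma adjusted p = 0.0022). COL9A3 shares 45 exon bases with TCFL5 on the other strand (13.7 to 15.9 FPKM). COL9A2, another chain of type IX collagen, averaged 2.82, 3.15 and 3.43 FPKM at 0 h, 24 h and 48 h and was not called (0.22 ± 0.10 at 48 h against control, adjusted p = 0.133), and COL9A1 had 1 fragment in 1 of the 9 libraries. COL12A1, which binds to type I fibrils elsewhere, averaged 11.6, 10.5 and 10.2 FPKM and was not called at 48 h against control (-0.17 ± 0.14, adjusted p = 0.422). Its log2 fold change at 48 h against 24 h was -0.01 (adjusted p = 0.962), and without replicate 3 of the 24 h group it was -0.20 and was called (adjusted p = 0.0421).

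COL18A1, the source of the fragment endostatin, had 3.08, 3.24 and 3.52 FPKM in controls, 3.25, 3.39 and 2.40 FPKM at 24 h, and 5.06, 5.27 and 5.45 FPKM at 48 h. All 48 h libraries were above all others, and the mean was 1.60 times that of controls (log2 fold change 0.55 ± 0.09, limma adjusted p = 0.00319). COL18A1 lies at chr21:45405137-45513720, upstream of COL6A1 (chr21:45981737-46005050) and COL6A2 (chr21:46098097-46132849), all on the plus strand of the hg38 assembly by GENCODE v29. From the start of COL18A1 to the end of COL6A2, 6 genes were tested, and the 3 collagen genes were the ones called higher at 48 h against control. The others, SLC19A1 (0.12, adjusted p = 0.26), PCBP3 (0.28, adjusted p = 0.0549) and a long non-coding RNA gene (-0.33, adjusted p = 0.21), were not called by limma. COL18A1 shares 1401 exon bases with SLC19A1, which lies on the other strand at 1.34 to 1.88 FPKM. The labels name no strand-specific library step, so fragments from shared bases could not be assigned to one gene.

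COL7A1 makes the anchoring fibrils of skin and had 0.712, 0.769 and 0.695 FPKM in controls, 0.633, 0.809 and 0.467 FPKM at 24 h, and 1.11, 1.04 and 1.10 FPKM at 48 h. All 48 h libraries were above all others. Its log2 fold change at 48 h was 0.27 ± 0.10 against control and 0.35 ± 0.10 against 24 h (SE), given as a description because its 48 h libraries alone brought it past the filter. The added 1 FPKM on the log scale makes these values smaller than the change of the means, which was 1.496 times that of controls. Without replicate 3 of the 24 h group COL7A1 lost its call against 24 h and was called against control, with the same limit from the filter. The 2 tested transmembrane collagens showed small differences. COL13A1, found at neuromuscular junctions, averaged 8.80, 8.51 and 9.42 FPKM at 0 h, 24 h and 48 h (0.09 ± 0.06 at 48 h against control, adjusted p = 0.302). COL17A1, a part of hemidesmosomes, averaged 1.63, 1.85 and 1.56 FPKM (-0.04 ± 0.07 at 48 h against control, adjusted p = 0.714). All 24 h libraries of COL17A1 lay above all controls (0.12) and above all 48 h libraries (-0.16 at 48 h against 24 h). All 48 h libraries of COL13A1 lay above all 24 h libraries (0.13). Of all tested genes, 4.81% lay wholly above controls at 24 h. At 48 h against 24 h, 23.1% lay wholly above and 23.1% below. Neither COL13A1 nor COL17A1 was called in any of the 3 comparisons, and COL23A1 and COL25A1 had at most 6 and 5 fragments in any library.

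The genes under 1 FPKM were read as fragments recovered from the FPKM values, and 13 of the 27 had at least 10 fragments in at least 3 libraries. Fragment numbers are not scaled to the library totals. A limma fit with voom weights on these fragments, added after the data had been seen, tested 30 collagen genes. That fit called 11 higher and 3 lower at 48 h against control, beside 11.6% and 13.3% of the 17851 genes it tested. It called 14 higher and 3 lower at 48 h against 24 h, beside 15.1% and 14.4% of all genes. At 24 h against control it called 0 collagen genes, beside 0% of all genes. At an unadjusted p under 0.05 in that comparison, 0 collagen genes were higher and 2 lower, beside 365 and 854 of the 17851 genes. Of the 13 low genes, 3 were called higher and 2 lower at 48 h against control. The 2 include COL3A1, which passed the fragment filter only through its control and 24 h libraries. COL22A1, a FACIT collagen of tissue junctions, had 62, 71 and 69 fragments in controls, 44, 56 and 61 at 24 h, and 150, 175 and 148 at 48 h (log2 fold change 1.06 ± 0.15 at 48 h against control, adjusted p = 0.000175). The network collagens COL8A1 and COL8A2, known from the membrane below the corneal endothelium, moved the same way. COL8A1 had 78, 83 and 83 fragments in controls, 70, 80 and 73 at 24 h, and 150, 193 and 149 at 48 h (0.84 ± 0.14, adjusted p = 0.000741). COL8A2 had 34, 35 and 37 fragments in controls, 40, 32 and 36 at 24 h, and 60, 63 and 54 at 48 h (0.57 ± 0.19, adjusted p = 0.0405). In a limma fit to log2(FPKM + 1) with no filter on low values, COL22A1 and COL8A1 were called at 48 h against control (adjusted p = 0.0125 and 0.0384) and COL8A2 was not (adjusted p = 0.151). With no filter and 0.1 FPKM added in place of 1, COL22A1 was called (adjusted p = 0.0217) and COL8A1 and COL8A2 were not (adjusted p = 0.0514 and 0.23).

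The low fibrillar genes called with voom weights were lower at 48 h, and these calls depended on the fit. COL1A1, a chain of type I collagen, had 115, 57 and 90 fragments in controls, 112, 137 and 121 at 24 h, and 40, 53 and 60 at 48 h. The 48 h and control libraries overlapped, and the log2 fold change at 48 h was -0.90 ± 0.27 against control (limma with voom weights, adjusted p = 0.0244) and -1.32 ± 0.25 against 24 h (adjusted p = 0.00146). COL3A1, which makes type III collagen, had 22, 24 and 24 fragments in controls, 16, 21 and 28 at 24 h, and 1, 8 and 13 at 48 h. Its log2 fold change against control was -2.29 ± 0.59 with voom weights. It passed the fragment filter only through its control and 24 h libraries, so that value is given as a description. All 48 h libraries of COL3A1 were below all others. With no filter on low values, COL1A1 was not called at 48 h against control (adjusted p = 0.21) and COL3A1 was (adjusted p = 0.0493), and with 0.1 FPKM added in place of 1 neither was called (adjusted p = 0.197 and 0.102). COL1A2, the partner of COL1A1 in type I collagen, had 1 to 13 fragments in each library, and COL2A1, the main cartilage collagen, had 1 to 7. COL11A1 had 1 fragment in 1 library. Changes in COL1A2, COL2A1 and COL11A1 were not detectable at this depth.

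**Figure D5:**
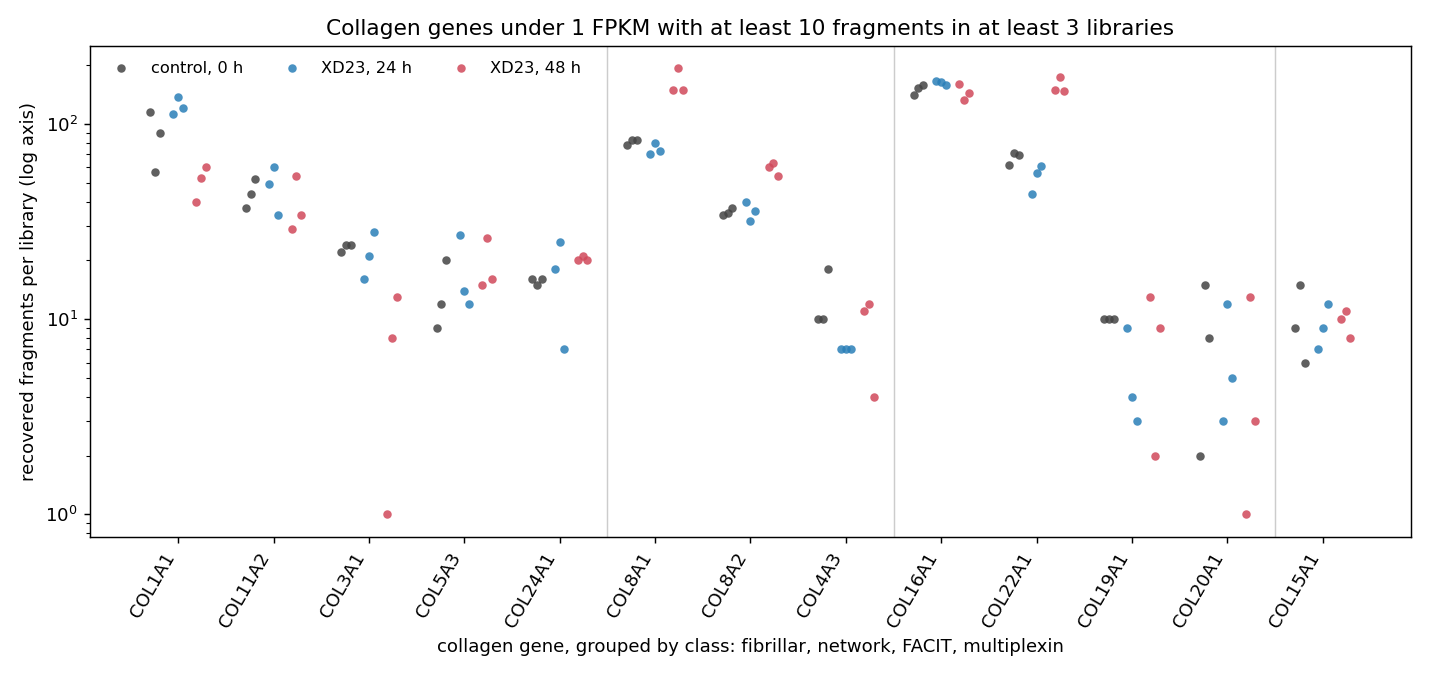
Recovered fragments per library on a log axis for the 13 collagen genes under 1 FPKM that had at least 10 fragments in at least 3 libraries, one point per library with control, 24 h and 48 h groups marked separately. COL8A1, COL8A2 and COL22A1 lie above all other libraries at 48 h, and COL3A1 lies below all others.

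Genes that make, cut, bind or control collagens were described by lists. In collagen modification, folding and export 3 of 24 tested genes were called higher and 4 lower at 48 h against control by limma, with a median log2 fold change of -0.01, where 13.3% of all tested genes were called higher and 15.2% lower; the same shares apply to the lists that follow. Those higher were P4HA2 and P4HA1, subunits of prolyl 4-hydroxylase, and PLOD1, a lysyl hydroxylase (0.86, 0.42 and 0.44). Those lower, named after their values were seen, were the transcription factor gene CREB3L1 (-0.46), the prolyl 3-hydroxylase gene P3H2 (-0.44), P3H4 (-0.29) and FKBP10 (-0.27). In procollagen processing and cross-linking 2 of 10 were higher (FURIN 0.37, PXDN 0.33) and 2 lower, among them the lysyl oxidase gene LOXL3 (-0.30). PXDN, peroxidasin, cross-links type IV collagen. Of 8 fibril partners 0 were higher and 3 lower (CCN2 -0.89, THBS1 -0.71, SPARC -0.56), with a median of 0.03. Of 14 basement membrane partners 5 were higher and 0 lower, with a median of 0.21. They included HSPG2, the gene of the proteoglycan perlecan, which averaged 3.40 ± 0.41 FPKM at 48 h and 1.80 ± 0.34 FPKM in controls (SD, n = 3 each; 0.65, limma adjusted p = 0.0474), and GPC1, a glypican (0.46). LAMA5, a laminin chain, was not called against control (0.37, adjusted p = 0.0879) and was called against 24 h (0.55, adjusted p = 0.019). It averaged 2.86 ± 0.83 FPKM at 24 h and 3.30 ± 0.23 FPKM in controls (SD). Whether its call against 24 h rests on replicate 3 of that group is not shown here.

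Of 11 tested collagen receptors 6 were higher and 0 lower at 48 h against control, with a median log2 fold change of 0.27. ITGA2, the alpha chain of a collagen-binding integrin, averaged 95.8 ± 6.06 FPKM at 48 h and 65.4 ± 1.61 FPKM in controls (0.54, limma adjusted p = 0.00303), and MRC2, an endocytic collagen receptor, had a log2 fold change of 0.45. CSPG4, a proteoglycan that binds collagen VI, was called against 24 h (0.51, adjusted p = 0.0238) and not against control (0.33, adjusted p = 0.117). It averaged 3.47 ± 0.97 FPKM at 24 h and 3.99 ± 0.16 FPKM in controls (SD). Whether its call against 24 h rests on replicate 3 of that group is likewise not shown. Of 13 breakdown genes, a list that also holds the inhibitors TIMP1, TIMP2 and TIMP3, 7 were higher and 2 lower, with MMP9 at 0.96, the membrane-bound collagenase gene MMP14 at 0.76 and MMP3 at -0.69. The 7 include the inhibitor TIMP2 (0.28), and the other lower gene was the inhibitor TIMP3 (-0.46), both named after their values were seen. MMP3, one of the 2 lower, averaged 0.886 ± 0.39 FPKM in controls, 0.871 ± 0.21 FPKM at 24 h and 0.147 ± 0.02 FPKM at 48 h (SD). It passed the filter only through its control and 24 h libraries, so its value is given as a description. Of 17 transcription factors that act on collagen genes 7 were higher and 2 lower, with EGR1 at 1.31, SOX9, which drives cartilage collagens, at 0.57 and YBX1 at -0.58. Of the 97 tested genes of these 7 lists, limma called 0 at 24 h against control. At an unadjusted p under 0.05, 5 were higher and 9 lower, beside 379 and 636 of the 13657 genes tested. The medians of the processing, breakdown and transcription factor lists were 0.09, 0.22 and 0.10, beside -0.02 over all tested genes.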

How the data were processed

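Poly(A)-selected RNA was sequenced as paired-end libraries, per the labels' protocols. The submitters' processing notes name HISAT2, featureCounts, Subread, DESeq2 and the hg38 build, and no sources used here give versions or settings. The FPKM values were used as the authors deposited them. The text of the series gives a 48 h incubation only, while the labels give 24 h and 48 h. The collagen genes, classes, gene lists and tests were chosen with earlier results of these data known.

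Group means were fitted with limma 3.58.1 (R 4.3.3, trend) to log2(FPKM + 1) of the 13657 genes with at least 1 FPKM in at least 3 of 9 libraries, with 3 libraries a group, no covariate and 6 degrees of freedom left. Tests were two-sided and their p-values were adjusted by Benjamini and Hochberg across every tested gene, and a fold change on this scale understates the change of low genes. Errors of fold changes are standard errors. The script was tested on simulated data. FPKM is a share of the library, so values are relative. Where fragments are given, whole fragments were recovered from the FPKM, exon length and library total (tolerance 0.001), which held for 10 of the 44 collagen genes with GENCODE v29 lengths and for 34 with the smallest length that gave whole numbers; such a length could be a fraction of the true one. Intervals for counting error were not computed.

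Values in every library are given for tested collagen genes called in at least 1 comparison, and group means or ranges for the others. From each list, up to 3 genes called in any of the 3 comparisons are named, those with the largest absolute log2 fold change in any of them. Alternatives were another pseudocount, other filters, scalings and fits, and leaving out each library, with 3 more added after the data were seen: voom weights, no filter with a pseudocount of 0.1, and a correction for gene length.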

Additional observations from a re-analysis of the deposited data

How the results depend on the processing

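Over 19 alternatives, 9 of which left out 1 library, 13 of the 16 called results kept their call and direction in every alternative in which the gene was tested, and 0 reversed. The calls lost in some were COL27A1, COL4A2 and COL7A1 at 48 h against 24 h. COL7A1 is thus among the 16, although it was tested only because of its 48 h level. Of 35 uncalled results 9 were called in some alternative and 14 changed sign in some. Genes called higher at 48 h against control numbered 10 in the fit to only the 2 groups compared, 11 with voom weights, and 6 to 10 when 1 library was left out. COL7A1 is among the 10 of the fit to 2 groups and the 10 without replicate 3 of the 24 h group. Over all genes these fits called 2255 of 13225 and 2365 of 13543 higher, and the main fit called 1811 of 13657. Those called lower numbered 2 with no filter and 3 with voom weights. COL3A1 is among the 3, although it passed the fragment filter only through its control and 24 h libraries. Against 24 h, 14 were called higher with voom weights; 1 was called lower with the length correction, the 5 FPKM filter, median-of-ratios scaling or no filter, 3 with voom weights, and 0 to 2 when 1 library was left out. Voom weights and no filter test more genes; for the rest the cause was not tested.

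The reversals were of uncalled values near 0. With the length correction, COL13A1, COL4A2, COL4A6 and COL6A3 at 24 h against control had log2 fold changes of 0.0018, 0.053, 0.017 and 0.021, and COL4A1 at 48 h against 24 h had -0.023. At 24 h against control COL4A2 had 0.015 with median-of-ratios scaling, and COL4A2 and COL4A6 had 0.0044 and 0.011 with quantile normalization. Leaving out 1 library, the values at 24 h against control ran from -0.26 to 0.037 for COL12A1, -0.078 to 0.017 for COL13A1, -0.17 to 0.015 for COL18A1, -0.085 to 0.15 for COL4A2, -0.010 to 0.073 for COL4A5, -0.066 to 0.056 for COL4A6, -0.16 to 0.057 for COL5A1, -0.034 to 0.14 for COL6A1, -0.12 to 0.021 for COL6A2, -0.14 to 0.14 for COL6A3 and -0.097 to 0.011 for COL9A3. At 48 h against 24 h they ran from -0.20 to 0.090 for COL12A1 and -0.031 to 0.11 for COL4A1, and at 48 h against control from -0.079 to 0.00075 for COL17A1.

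Over all genes, median-of-ratios scaling called 2155 higher and 1617 lower at 48 h against control, where the FPKM as deposited gave 1811 and 2080. Same-numbered libraries had deviations correlated at -0.06 to 0.24, so the numbers do not pair them. With a replicate block, 7 collagen genes were called higher (the added one is COL4A2, adjusted p = 0.046) and 1 lower at 48 h against control, and 9 higher and 0 lower at 48 h against 24 h. Depth limited the genes under 1 FPKM: 18 of the 27 had at most 20 fragments in every library.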
